A study of Arabidopsis thaliana with 8 samples.

Results

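ANX2, RALFL25, RALFL26 and AT2G15880 were followed across 8 Affymetrix ATH1 arrays of *Arabidopsis thaliana* inflorescence RNA. These 4 genes were chosen by name, under the heading of signals and receptors for keeping a growing pollen tube intact. Whether RALFL25 and RALFL26 act in this was not tested. Each gene is read by 1 of the 13513 probe sets that the platform annotation assigns to a single gene. The table holds 22810 probe sets in all. Earlier results of these data, in which such genes lay low in T13 and HET, were known when the names were chosen. Their levels in T13 and HET against CON, and in T13 against T14, are therefore given as a description.

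All plants were of the ecotype Ws and were taken at growth stage 6.0 after growth under glass at 18 °C and a daily light period of 16 h. Tissue of 10 plants was combined, as the design text states. There are 4 groups of 2 arrays. CON plants have no genetic modification in their labels. In T13 the gene AT3G47620, which encodes TCP14, is interrupted by T-DNA. In T14 the interrupted gene is AT1G69690, which encodes TCP15. HET plants are heterozygous at both loci, with 1 insertion in each gene, and the title of HET replicate 2 calls it a repeat. Both proteins are transcription factors of the plant TCP family. Whether T13 and T14 were homozygous is not stated, and each gene is represented by 1 insertion line. No label says that paired arrays of a genotype were made from different plant pools, so standard errors and p-values measure the spread between arrays, which may be technical.

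A pollen tube elongates at its tip through the tissues of the pistil and has to hold its wall together until it reaches an ovule, where it bursts and releases the sperm. ANX2 and its close relative ANX1 are receptor-like kinases of the CrRLK1L family in the plasma membrane of the tube, and tubes that lack both burst too early. RALF peptides are small secreted signals, some of which bind receptors of this family. Leucine-rich repeat extensins are wall-anchored proteins, and members of the family made in pollen bind RALF peptides and are needed for a stable tube wall.

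TCP15, the targeted gene that could be read, had intensities of 86 and 68.8 on the T14 arrays, below all 6 other arrays (188.2 to 244). The HET arrays (188.2 and 221.8) overlapped CON (198.2 and 244) on this gene, so TCP15 did not set HET apart from CON. TCP14 was not analysed here, so neither the T13 label nor the HET label was checked by a targeted gene. The deposited intensities share a scale, and array medians lay between 51.35 and 59.5. HET replicate 1 differed from the rest in how evenly transcripts were copied along their length, read as the signal of the 5' GAPDH control divided by that of the 3' control, at 0.345 against 0.0639 to 0.129 on the other arrays. Of 12 genes listed for floral organ identity, 0 had a probe set of 1 gene, so the labelled tissue was checked through anther genes. Of 18 tapetum markers 3 had one, and their summed intensity in CON was 387.2 and 426.4. Of 19 mature pollen markers 3 had one, with a summed intensity in CON of 1354.9 and 1381.8, so RNA of developing anthers and pollen was present.

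The receptor ANX2 had intensities of 61.6 and 65.1 in CON, 38.9 and 67 in T14, 8.6 and 16.8 in T13, and 4.3 and 9.6 in HET. The T13 and HET arrays overlapped each other and lay below all 4 CON and T14 arrays. In RNA of whole inflorescences, fewer pollen cells and less RNA per pollen cell cannot be told apart. On average ANX2 stood at 63.4 ± 2.47 in CON (SD, n = 2, as for every ± below unless marked SE), and its T13 mean was 20.0% and its HET mean 11% of that. The log2 difference from CON, on the log2(intensity + 16) scale used throughout, was -1.48 (SE 0.331) in T13 and -1.80 (SE 0.331) in HET. Adding 16 damps noise at low intensities and makes these differences smaller than the ratios of the raw values. To be tested, a probe set had to reach the 40th percentile of its array (34 to 41.4) on at least 2 arrays. All 4 genes were tested, and each was below that level on both HET arrays. ANX2 and RALFL25 were below it on both T13 arrays too, and AT2G15880 on T13 replicate 1. ANX2 and RALFL25 therefore entered the tests only through CON and T14, where they are high.

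RALFL25, a secreted signal peptide gene, had intensities of 124.1 and 129.5 in CON, 79.6 and 124.9 in T14, 30.4 and 34.4 in T13, and 13.2 and 20.2 in HET. No T13 array overlapped a HET array, and both groups lay below CON and T14. The T13 mean was 25.6% and the HET mean 13.2% of the CON mean of 127 ± 3.82. The log2 differences from CON were -1.56 (SE 0.237) and -2.13 (SE 0.237).

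RALFL26, the gene next to RALFL25 in the RefSeq annotation and a second RALF peptide gene, had intensities of 231.6 and 245.3 in CON, 134.6 and 207.6 in T14, 80.5 and 68.1 in T13, and 28.4 and 36.7 in HET. The 4 groups did not overlap one another on this gene. Its T13 mean was 31.2% and its HET mean 13.7% of the CON mean of 238 ± 9.69, with log2 differences of -1.50 (SE 0.22) and -2.39 (SE 0.22). The gene on the other side of RALFL25, AT3G25160, was dim on every array, from 25.2 to 37.3, and was not tested. Whether the probes for RALFL25 and RALFL26 read each other's transcripts was not tested.

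AT2G15880, the leucine-rich repeat extensin, had intensities of 105.2 and 73.6 in CON, 76.6 and 98.5 in T14, 36 and 60.7 in T13, and 6.3 and 7.4 in HET. Its CON and T14 arrays overlapped, T13 lay between them and HET, and the HET arrays were far below all others. The T13 mean was 54.1% of the CON mean of 89.4 ± 22.3, while the HET mean was 7.66% of it. Log2 differences from CON were -0.72 (SE 0.265) in T13 and -2.19 (SE 0.265) in HET. The T13 difference was -0.44 without T13 replicate 1 and -1.003 without T13 replicate 2. The gap between the 2 CON arrays was the widest among the 4 genes.

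**Figure D1:**
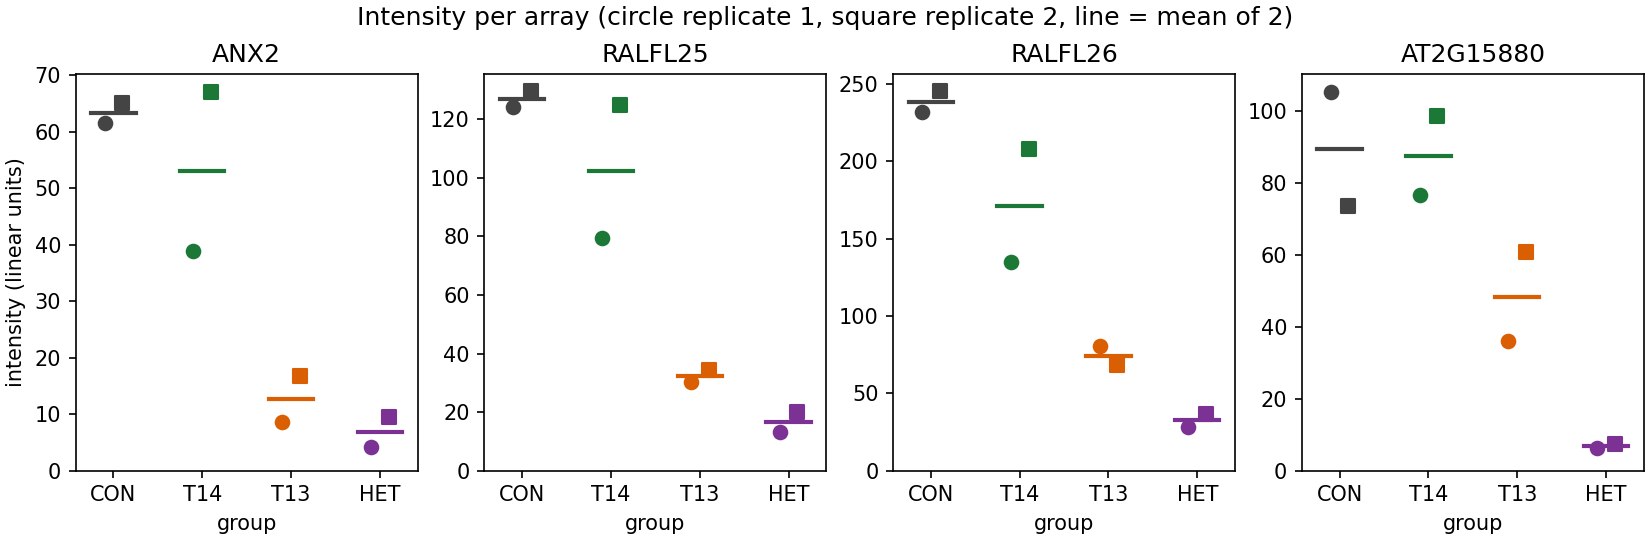
Intensity (linear units) of ANX2, RALFL25, RALFL26 and AT2G15880 on each of the 8 arrays, by group. Circles are replicate 1, squares replicate 2 and lines the mean of the 2 arrays. Both HET arrays lie below both CON and both T14 arrays for all 4 genes, and AT2G15880 keeps a T13 mean of 54.1% of CON.

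The order of the group means was CON, T14, T13, HET for all 4 genes. Neighbours in this order were not always separated. CON and T14 overlapped for ANX2, RALFL25 and AT2G15880, and T13 and HET overlapped for ANX2. T14 and T13 were separated for all 4.

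Counted by the test, 2 of the 4 genes (RALFL25 and RALFL26) were called lower in T13 than in CON, where 0.585% of all 15045 tested probe sets were (limma, adjusted p under 0.05). In HET all 4 were called lower, where 1.02% of probe sets were. Because the genes were chosen with these contrasts known, nothing is read from these counts. All 4 had both T13 arrays below both CON arrays, as had 15% of tested probe sets, and all 4 had both HET arrays below both CON arrays, as had 17.4%. The median log2 difference of the 4 genes was -1.49 in T13 and -2.16 in HET, against 0.051 and 0.0023 over all tested probe sets. Leaving out CON replicate 1, CON replicate 2 or T13 replicate 2 ended both calls in T13, at log2 differences of -1.59, -1.53 and -1.62 for RALFL25 and -1.54, -1.46 and -1.40 for RALFL26. Without T13 replicate 1 only RALFL26 was called (-1.60), not RALFL25 (-1.50). In HET the ANX2 call was lost on leaving out either CON array (log2 -1.83 for the first, -1.77 for the second) or either HET array (-1.63 and -1.97), while the other 3 were called in each of these. ANX2 was also not called in HET with the scanner background as a covariate (-1.75) or with pseudocount 1 (-3.10). With the GAPDH ratio as a covariate, neither ANX2 (-1.50) nor AT2G15880 (-1.96) was.

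The insertion in TCP15 was compared with CON through T14, a contrast on which the genes were not chosen. Its CON and T14 arrays both entered contrasts that were known at that choice, so its values are not independent of it. None of the 4 passed (limma adjusted p from 0.831 to 0.994), where 0.0199% of probe sets were called lower and 875 of 15045 had an unadjusted p under 0.05. The largest difference was that of RALFL26, at -0.47 on the log2 scale (SE 0.22, 95% confidence interval -0.95 to 0.01), whose 2 T14 arrays lay below both CON arrays, as did 15.8% of tested probe sets. RALFL25 differed by -0.30 (interval -0.82 to 0.22) and ANX2 by -0.23 (-0.96 to 0.49). For AT2G15880 the difference was -0.02 (-0.60 to 0.56). These intervals include falls of a size that 2 arrays a group could not separate from no change. ANX2 had a difference of 0.065 without T14 replicate 1, and AT2G15880 one of 0.201 without CON replicate 1 and 0.136 without T14 replicate 1.

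Set directly against T14, the T13 arrays were lower for all 4 genes with no overlap, as they were for 13% of tested probe sets. The log2 differences of T13 from T14 were -1.25 (SE 0.331) for ANX2, -1.26 (SE 0.237) for RALFL25, -1.03 (SE 0.22) for RALFL26 and -0.71 (SE 0.265) for AT2G15880. Of the 4, 1 (RALFL25) was called, against 0.379% of probe sets called lower. RALFL25 was not called without T13 replicate 1 (log2 -1.20), T13 replicate 2 (-1.32), T14 replicate 2 (-0.98) or any 1 of the CON and HET arrays (-1.26 each). Without T14 replicate 1 both RALFL25 (-1.54) and RALFL26 (-1.31) were.

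HET was then compared with T13, the other group in which these genes lay low. All 4 means were lower in HET, and 3 genes had both HET arrays below both T13 arrays, as had 26.3% of tested probe sets. AT2G15880 showed the largest difference among them, -1.47 on the log2 scale (SE 0.265, 95% confidence interval -2.05 to -0.89), with a T13 mean of 48.4 ± 17.5 and a HET mean of 6.85 ± 0.778. This gene had been picked out earlier from a contrast of HET with T13 and T14, so its value here is not independent. RALFL26 differed by -0.90 (interval -1.38 to -0.41), RALFL25 by -0.57 (-1.09 to -0.05) and ANX2 by -0.32 (-1.04 to 0.41). None passed over all probe sets (limma adjusted p from 0.236 to 0.75), and 0% of probe sets were called lower. At an unadjusted p under 0.05 there were 1491 of 15045 probe sets. With the GAPDH ratio as a covariate, the difference of ANX2 was 0.161.

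To show how the parts moved together, each intensity was expressed as a percentage of the gene's own CON mean. On HET replicate 1 the 4 genes lay between 6.79% (ANX2) and 11.9% (RALFL26), and on HET replicate 2 between 8.28% (AT2G15880) and 15.9% (RALFL25). The receptor, both peptides and the extensin were all at or under 15.9% of CON in HET. On T13 replicate 1 they spread from 13.6% (ANX2) to 40.3% (AT2G15880), and on T13 replicate 2 from 26.5% to 67.9% for the same 2 genes. On T14 replicate 1 the range was 56.4% (RALFL26) to 85.7% (AT2G15880), and on T14 replicate 2 it was 87.1% to 110%, again for these 2. AT2G15880 was the highest of the 4 on both T13 and both T14 arrays and lower than both RALF genes on both HET arrays. All 4 genes were below the 40th percentile on both HET arrays, so the percentages and their order there rest on low intensities. Differences between genes in these percentages were not tested.

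**Figure D2:**
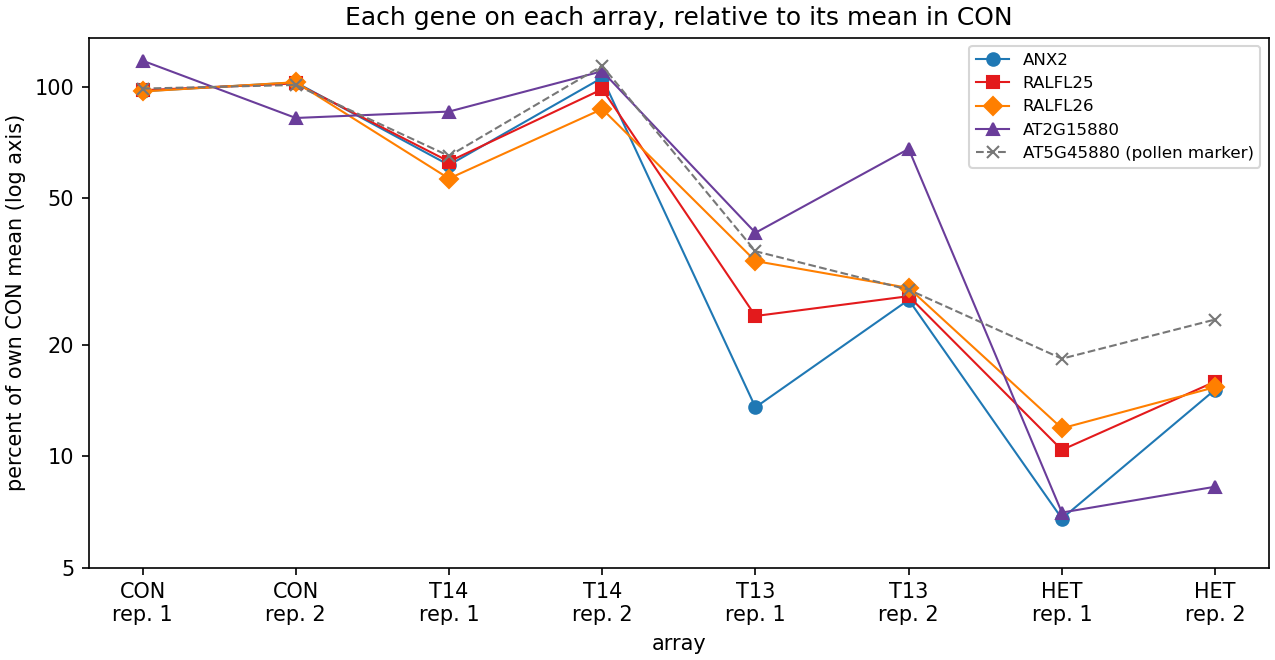
Each gene's intensity on each array as a percentage of its own mean in CON (log axis), for ANX2, RALFL25, RALFL26, AT2G15880 and the mature pollen marker AT5G45880. In HET, where all 4 genes were below the 40th percentile of both arrays, they lie between 6.79% and 15.9%. In T13 AT2G15880 (40.3% and 67.9%) lies above the other 3.

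The arrays of a single group gave a view of joint movement that the choice of genes did not use. In T14 all 4 genes were higher on replicate 2 than on replicate 1, by 0.60 for ANX2, 0.56 for RALFL25, 0.57 for RALFL26 and 0.31 for AT2G15880 on the log2 scale. Over all tested probe sets the median difference between these 2 arrays was 0.0207, and 7.28%, 8.43%, 8.04% and 21.8% of probe sets differed by at least as much in that direction. The pollen marker AT5G45880 moved the same way between these arrays, from 776.7 to 1361.6. The other tested pollen marker, TUA1, went from 118.9 to 121.7 (log2 0.03). In HET all 4 were also higher on replicate 2, by 0.33, 0.31, 0.25 and 0.07 in the same order. There the median of all tested probe sets was 0.0637, 57.4% of them were higher on replicate 2, and 20.2%, 22.4%, 28.3% and 49.2% of them differed by at least as much. AT5G45880 was also higher on HET replicate 2, by 0.33, while TUA1 was lower there, by -0.28. In T13 and CON the directions of the 4 genes were mixed. AT2G15880 was lower on CON replicate 2 by -0.44 while the other 3 were higher by 0.05 to 0.08.

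**Figure D3:**
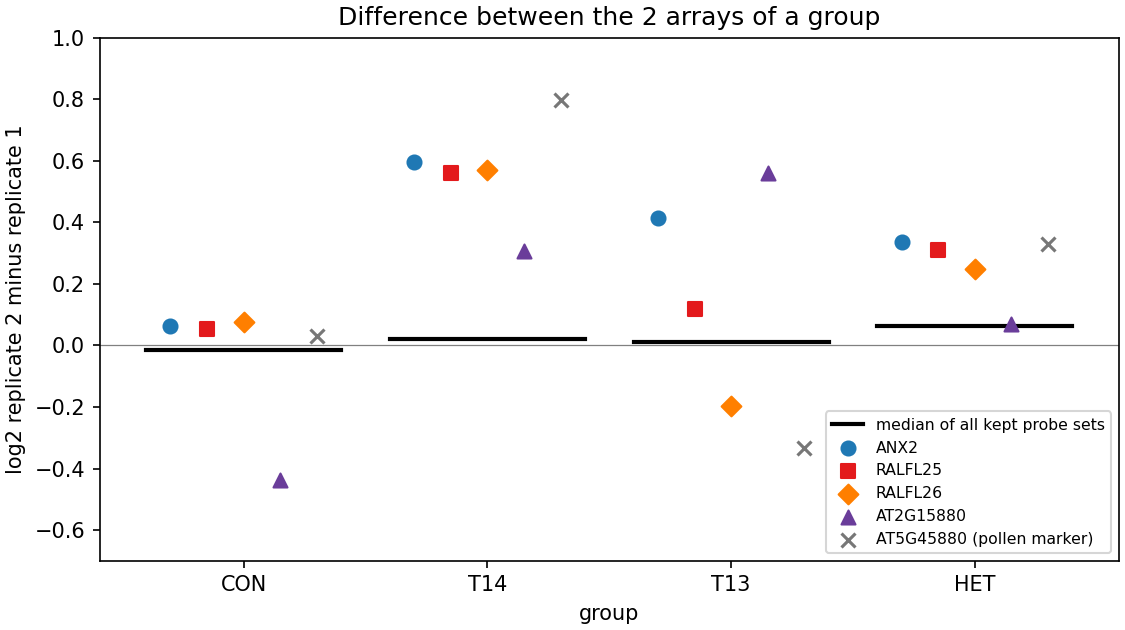
Log2 difference of replicate 2 from replicate 1 within each group, for the 4 genes and the pollen marker AT5G45880, with the median of all tested probe sets as a line. In T14 the 4 genes lie between 0.31 and 0.60, above the median of 0.0207.

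The rest of the pathway was described from lists of receptors, co-receptors, peptides, extensins and tube signalling genes. Apart from the 4 genes these lists name 74 genes, of which 28 had a probe set of 1 gene and 16 were bright enough to be tested. In HET 2 of the 16 were called lower and 0 higher than in CON (limma), where 1.02% of all tested probe sets were called lower and 0.0465% higher, and their median log2 difference was -0.02. In T13 0 of the 16 were called lower (background 0.585%) and 0 higher (0.00665%) by limma, with a median of -0.06. Of the 4 LORELEI co-receptors, membrane-anchored partners of these receptors, 0 had a probe set of 1 gene. The 2 of the 16 called in HET, AT4G39110 and AT3G19020, were below the 40th percentile on both T13 and both HET arrays. They entered the tests only through CON and T14, where they are high, so their calls are a description.

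Among the CrRLK1L receptors, 12 of 17 genes had a probe set and 6 were tested. AT4G39110 had 98.3 and 90.3 in CON, 37.2 and 30.7 in T13, 79.9 and 115.4 in T14 and 6.6 and 24.5 in HET. It was called lower in HET (log2 -1.87, SE 0.289, limma adjusted p = 0.00639) and did not pass in T13 (-1.15, limma adjusted p = 0.22). That call was lost without CON replicate 1 (-1.81), CON replicate 2 (-1.92) or HET replicate 1 (-1.44), without the filter (-1.87), and with the scanner background (-1.91) or the GAPDH ratio (-1.34) as a covariate. FERONIA (FER), a receptor of the same family that acts in many plant tissues, had 243.7 and 321 in CON and 396.4 and 411.7 in HET (log2 0.51, limma adjusted p = 0.687). THESEUS1 (THE1), a family member known as a monitor of cell wall damage, had 114.2 and 110.5 in CON and 113.7 and 157.1 in HET (log2 0.22, limma adjusted p = 0.97). The HET arrays of FER lay above both CON arrays, as did 16.8% of tested probe sets, whereas those of ANX2 lay below. In T14, FER had 395.5 and 350.9 (log2 0.39, limma adjusted p = 0.835) and THE1 had 174.3 and 164.7 (0.53, limma adjusted p = 0.8). Singled out after its values were seen, ANX1, the closest relative of ANX2, was too dim to be tested, at 13.5 and 13.6 in CON, 2.8 and 2.9 in T13, 17.2 and 10.1 in T14 and 10.1 and 1.7 in HET. AT2G21480, singled out in the same way, had 53.3 and 39.6 in CON and 16.6 and 18.6 in HET (log2 -0.89, limma adjusted p = 0.51).

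Among the RALF peptides, 10 of 29 genes had a probe set and 7 were tested. RALFL25 and RALFL26 were the only 2 of the 7 called in either T13 or HET, both lower. Over all tested probe sets, 0.585% were called lower in T13 and 1.02% in HET. Singled out after its values were seen, RALFL18 was too dim to be tested. It had 20.9 and 23.8 in CON, 10.2 and 4.8 in T13, 11 and 13.5 in T14 and 3.2 and 4.8 in HET. RALFL27 (0.5 to 2.4 over the 8 arrays) and RALFL28 (0.8 to 11.3) were also too dim. RALFL34, a peptide gene of the family, had 1399.9 and 1028.6 in CON, 1287.6 and 1020.9 in T13, and 1188.7 and 1396.1 in HET (log2 0.10 in HET, limma adjusted p = 0.995). RALFL32 had 136.9 and 104.8 in CON and 140.9 and 111.9 in HET (log2 0.06, limma adjusted p = 0.998). For both, the CON and HET arrays overlapped, and the small difference turned sign in some alternatives (-0.118 to 0.32 for RALFL34 and -0.11 to 0.265 for RALFL32).

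Of the leucine-rich repeat extensins, 8 of 11 had a probe set and 6 were tested. AT3G19020 had 172.5 and 108.6 in CON, 24.7 and 38.2 in T13, 109.1 and 116.7 in T14 and 3.7 and 31.8 in HET. It was called lower in HET (log2 -2.32, SE 0.363, limma adjusted p = 0.00687) and not in T13 (-1.71, limma adjusted p = 0.0878). The HET call was lost without CON replicate 1 (-2.02) or HET replicate 1 (-1.68), without the filter (-2.32), and with the scanner background (-2.03) or the GAPDH ratio (-1.46) as a covariate. The T13 value passed without either HET array (-1.71), with pseudocount 32 (-1.43), with the compared groups alone (-1.71) and with the GAPDH ratio (-2.23). AT1G49490 had 101.7 and 94.9 in CON and 18.8 and 46.5 in HET (log2 -1.29, limma adjusted p = 0.152), and passed without T14 replicate 1 or with the compared groups alone, at the same difference. AT4G33970 had 103.5 and 59 in CON and 26.9 and 36.3 in HET (log2 -0.999, limma adjusted p = 0.279). With AT2G15880, these were the 4 tested extensins whose HET arrays all lay below both CON arrays, beside 17.4% of all tested probe sets. The remaining pair overlapped between CON and HET: AT3G24480 had 135.5 and 125 in CON and 117.8 and 173 in HET, and AT4G18670 had 195.5 and 110.6 in CON and 134.9 and 141.4 in HET. Too dim to be tested, AT3G22800 ran from 19.9 to 48.7 and AT5G25550 from 14 to 37.9 over the 8 arrays.

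Of 17 genes listed for tube signalling, 2 had a probe set. AT5G45840 had 39.3 and 33.2 in CON and 20.6 and 27.6 in HET (log2 -0.38, limma adjusted p = 0.943). AT2G41970 was too dim to be tested, at 44 and 25.3 in CON, 7.2 and 5.2 in T13, 7.4 and 11.1 in T14 and 4.5 and 6.9 in HET. On this gene T14 lay below CON as T13 and HET did.

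**Figure D4:**
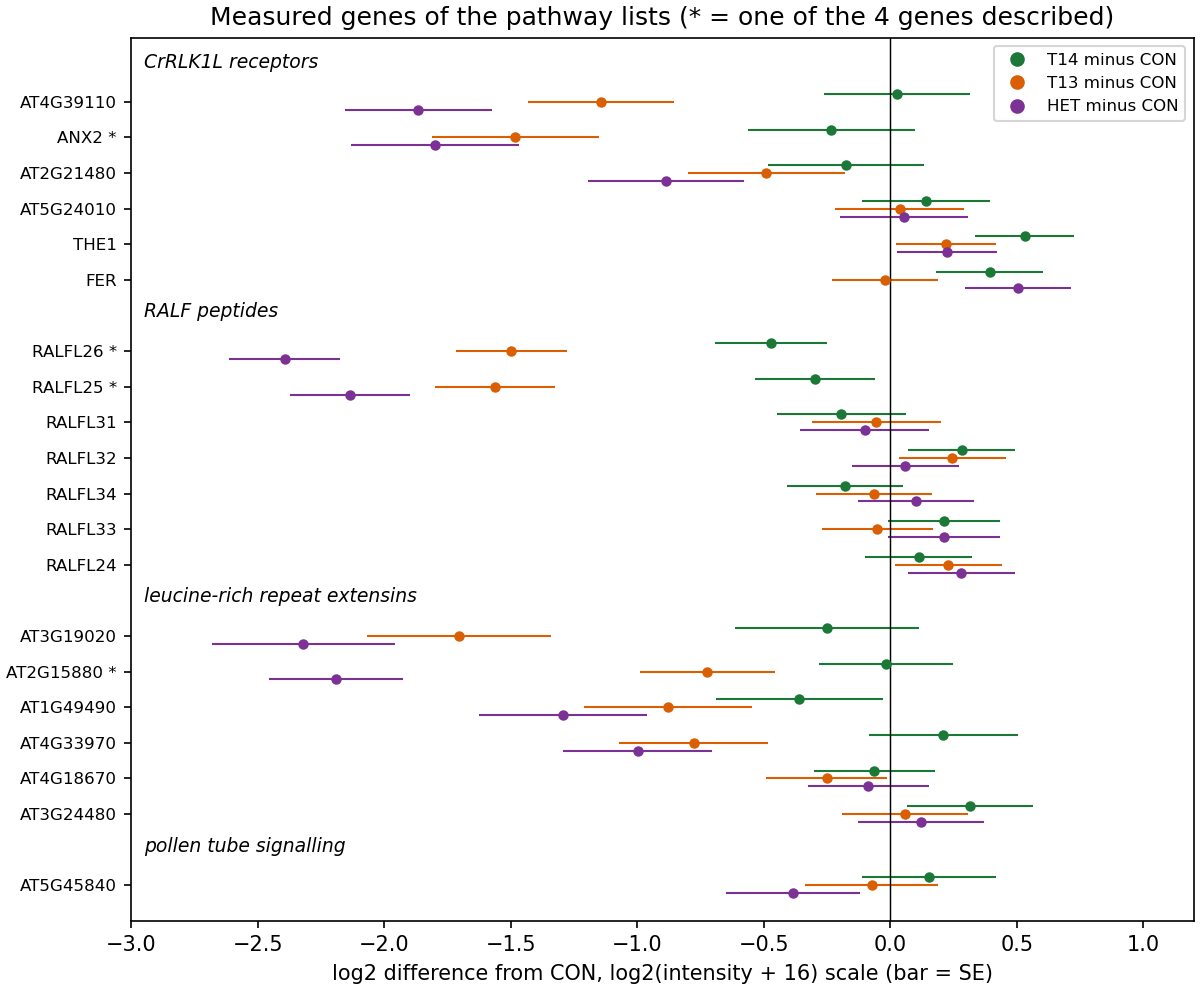
Log2 difference from CON (log2(intensity + 16) scale, bars are SE) in T14, T13 and HET for the tested genes of the pathway lists. ANX2, RALFL25, RALFL26 and AT2G15880 lie between -1.80 and -2.39 in HET, while FER, THE1, RALFL32 and RALFL34 lie between 0.06 and 0.51. Also low in HET are AT3G19020 (-2.32), AT4G39110 (-1.87), AT1G49490 (-1.29), AT4G33970 (-0.999) and AT2G21480 (-0.89).

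Of 19 listed mature pollen markers 2 were tested, and 1 of them, AT5G45880, was called lower in T13 and in HET. The shares of all tested probe sets called lower were 0.585% in T13 and 1.02% in HET. The summed intensity of the 3 measured mature pollen markers was 1354.9 and 1381.8 in CON, 898.4 and 1504.2 in T14, 516.1 and 466.3 in T13, and 330.2 and 366.5 in HET, with no marker at 0. Most of it came from AT5G45880, which had 1181.9 and 1208.8 in CON, 429 and 337.6 in T13 and 219.7 and 280.4 in HET. Its log2 difference from CON was -1.61 in T13 (SE 0.27, limma adjusted p = 0.02) and -2.20 in HET (SE 0.27, limma adjusted p = 0.00111). Its T13 call was lost on leaving out either CON array (-1.63 and -1.59) or either T13 array (-1.78 and -1.45), and also without the filter (-1.61) and with the scanner background (-1.57) or the GAPDH ratio (-1.77) as a covariate. The HET call was lost with the GAPDH ratio (-1.93). TUA1, an alpha tubulin gene active in pollen, had 149.6 and 137 in CON, 80.7 and 123.4 in T13, 118.9 and 121.7 in T14 and 102.5 and 81.6 in HET, and did not pass (log2 -0.46 and -0.57, limma adjusted p = 0.836 and 0.593). ACT12, a pollen actin gene, was too dim to be tested, at 23.4 and 36 in CON, 6.4 and 5.3 in T13, 2.8 and 20.9 in T14 and 8 and 4.5 in HET. On TUA1 and ACT12 both T14 arrays lay below both CON arrays, as they did for 15.8% of tested probe sets. On AT5G45880 the T14 arrays overlapped CON. The sperm cell histone gene MGH3, the 1 measured of 4 sperm markers, was dim throughout, at 5.2 and 17.8 in CON and 2.3 and 2.4 in HET. The part of pollen abundance in the levels of the 4 genes was not tested.

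Of 18 listed tapetum markers 3 were tested, and 1 of them, ATA27, was called higher in HET, as were 0.0465% of all tested probe sets. The tapetum is the anther cell layer that feeds developing pollen. The summed intensity of its 3 measured markers was 387.2 and 426.4 in CON, 519.9 and 530.1 in T13, 116.1 and 220.9 in T14 and 1109.9 and 720.8 in HET, with none at 0. ATA27, a beta-glucosidase gene of the tapetum, differed from CON by 1.15 on the log2 scale in HET (limma adjusted p = 0.0187). The call was lost without CON replicate 1 (1.14), CON replicate 2 (1.16) or HET replicate 1 (0.92), and with the scanner background (1.15) or the GAPDH ratio (0.92) as a covariate. The other 2 markers, AT5G07230 (log2 1.02, limma adjusted p = 0.662) and AMS, a regulator of tapetum development (log2 0.54, limma adjusted p = 0.824), did not pass. The low sum in T14 came from ATA27 (62.9 and 71.9, CON 207.2 and 209.9) and AT5G07230 (30.5 and 119.1, CON 156.4 and 192.7). AMS in T14 (22.7 and 29.9) overlapped CON (23.6 and 23.8). Any relation of the tapetum markers to the 4 pollen tube genes was not tested.

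The genes with the most similar profiles were found by the root mean square difference, over the 8 arrays, between log2 differences from each gene's own CON mean, among 8282 other tested probe sets of 1 gene. Nearest to ANX2 were AT4G18395 (0.122), the expansin EXPB5 (0.167) and AT5G19580 (0.167). For RALFL25 they were AT3G01270 (0.121), the pollen marker AT5G45880 (0.14) and AT5G26700 (0.145), and for RALFL26 they were AT5G15110 (0.124), AT3G61160 (0.134) and AT5G07430 (0.147). Nearest to AT2G15880 were AT2G33420 (0.307), AT1G13970 (0.317) and AT4G03290 (0.327), all farther than the neighbours of the other 3 genes. Between the 4 genes, RALFL25 and RALFL26 were the closest pair (0.179), followed by ANX2 and RALFL25 (0.191) and ANX2 and RALFL26 (0.356). AT2G15880 lay farthest from the rest, at 0.47 from ANX2, 0.481 from RALFL25 and 0.52 from RALFL26. Ranked beside the 8282 probe sets, RALFL25 and RALFL26 each stood at rank 9 from the other, and ANX2 and RALFL26 at rank 34. RALFL25 stood at rank 5 from ANX2, and ANX2 at rank 11 from RALFL25. AT2G15880 stood at ranks 62 to 68 from the other 3, which stood at ranks 20 to 33 from it. Each of the 4 thus had genes outside the 4 nearer to it than any of the other 3. Profiles over 8 arrays in 4 groups are set mostly by the group means, so these distances and ranks describe the arrays and carry no test.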

How the data were processed

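Per the labels' protocols, biotin-labelled cRNA from inflorescence total RNA was hybridised to ATH1 arrays. The authors deposited linear intensity values, 1 for each probe set on each array. Which software summarised the probes is not given here. A mean trimmed by 2% at both ends came to 100.01 on all 8 arrays, and no further scaling was applied to the deposited intensity. No detection calls were used, and the number of arrays limits the precision.

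Probe sets were named from the platform annotation and brought up to date by Entrez identifier with RefSeq (TAIR10.1). A single gene was listed for 13513 of the 22810 probe sets, several genes for 503 and none for 8794. No sequences or coordinates are printed. Genes known only by a locus were put on lists from general knowledge.

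Log2(intensity + 16) was the response in limma 3.58.1 under R 4.3.3 (lmFit, eBayes with an intensity trend; 4 residual and 7.39 prior degrees of freedom) over all 8 arrays. Kept were the 15045 probe sets at or above the 40th percentile of their array in at least 2 arrays, and the 64 control probe sets were left out. P-values were adjusted by Benjamini-Hochberg over all kept probe sets, and calls made at an adjusted p under 0.05. In a simulation of T13 against CON over 15045 probe sets, 40 of 100 lowered 2-fold and 98 of 100 lowered 4-fold were recovered. There were 7 false calls. These folds are of intensity + 16, so they are larger as ratios of intensity. The simulated noise was normal, with a variance smoothed over probe sets of similar intensity. It lacks the differences in spread between genes, so these shares do not give the power in the real data.

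The members, lists, tests and alternatives were chosen with earlier results of these data known. Named are the 4 members, the targeted genes, every pathway list gene with a probe set (for lists over 8, the 4 of highest CON intensity) and the 3 nearest profiles of each member. Replicates were numbered in accession order and do not pair arrays. Alternatives changed the pseudocount (1, 32), the filter (none, 60th percentile), quantile normalization, the variance trend, the groups fitted, a covariate (scanner background average, log2 GAPDH ratio) or left out 1 array. Figures were drawn with matplotlib 3.10.9.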

Additional observations from a re-analysis of the deposited data

Results flagged for a closer look

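RALFL25 differed between the 2 single-gene lines by a test of T13 against T14 (log2 -1.263, limma adjusted p = 0.0449), with both T13 arrays (30.4 and 34.4) below both T14 arrays (79.6 and 124.9). The gene had been chosen with this contrast known and entered the test only through CON and T14, where it is high, so this value is a description. The call held in 3 of 17 alternatives.

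A control probe set pair outside the comparisons showed a signal above CON. The signal of the 5' GAPDH control divided by that of the 3' control was 0.3454 on HET replicate 1, against 0.086 and 0.129 on the CON arrays. On this array all 4 genes were lower than on HET replicate 2. Without it the log2 differences of HET from CON were -1.632 for ANX2, -1.98 for RALFL25, -2.271 for RALFL26 and -2.155 for AT2G15880.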

How the results depend on the processing

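Of 335 repeats of the members' log2 differences, 5 changed sign, and in each of the 5 the value passed in neither setting. T14 against CON ran from -0.531 to 0.065 for ANX2 and from -0.235 to 0.201 for AT2G15880 leaving out 1 array (0.136 without T14 replicate 1), and AT2G15880 gave 0.314 with the scanner background in the model. HET against T13 gave 0.161 for ANX2 with the GAPDH ratio as a covariate. Among other named genes in HET against CON, RALFL32 gave -0.062 and AT4G18670 0.11 with the GAPDH ratio, and with scanner background AT3G24480 gave -0.003 and AT4G18670 0.298. Leaving out 1 array gave from -0.11 to 0.23 for RALFL32, -0.118 to 0.32 for RALFL34, -0.127 to 0.371 for AT3G24480 and -0.457 to 0.284 for AT4G18670.

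The count of the 4 members called lower in T13 against CON was 2, and was 0 without the filter. Without the intensity trend it was 3, as ANX2 (log2 -1.48) was then called too. The count fell on leaving out either CON array or either T13 array. In HET against CON it was 4, was 2 with the GAPDH ratio, 3 with pseudocount 1, with the scanner background and with the 60th percentile, and 3 to 4 leaving out 1 array. In T13 against T14 it was 1. It was 0 with pseudocount 1, unfiltered, with the 60th percentile, without the intensity trend, with the compared groups alone and with either covariate, and 0 to 2 leaving out 1 array. It was 0 in T14 against CON and in HET against T13 under all 17 alternatives. Where an array was left out, the lone array of its group was assumed to vary like the other groups. ANX2 did not reach the 60th percentile and has no value there.

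Probe sets called over the whole table were 89 in T13 against CON (16 to 109 over the alternatives), 3 in T14 against CON (0 to 10), 161 in HET against CON (52 to 206), 75 in T13 against T14 (0 to 80) and 0 in HET against T13 (0 to 2). Other pathway genes called lower, an alternative added after the data were seen, were 0 in T13 (0 to 1) and 2 in HET (0 to 3). The cause of these shifts was not tested.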
